A study of Mus musculus with 18 samples.

Results

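The genes described here carry and sense retinoic acid: the cellular retinoic acid binding proteins Crabp1 and Crabp2, the retinoic acid receptors Rara, Rarb and Rarg, the retinoid X receptors Rxra, Rxrb and Rxrg, and the synthesizing enzyme Aldh1a2. They were chosen by symbol. Of these 9 genes 7 had a probe set (a group of oligonucleotide probes read as 1 value) annotated to them alone, with 9 probe sets among the 13057 measured on both array types. Crabp2 (1 probe set) and Rarg (2) were on array type a, and Crabp1 (2), Aldh1a2, Rxra, Rxrb and Rxrg (1 each) were on type b. No probe set carried the symbol Rara or Rarb, and the levels of those receptors were not analysed here.

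Mouse embryos at embryonic day 9.5 had been cut into 3 parts, and the arrays read total RNA of the middle one. By label they carried no, 1 or 2 mutant copies of Nkx2-5 (also Csx), and are called wild type, heterozygotes and homozygous mutants here. The gene encodes a homeodomain factor that the developing heart needs. Each genotype had 3 arrays of each type, 18 arrays in all. Replicate numbers are those of the labels: 1, 5 and 7 (wild type), 3, 4 and 8 (heterozygous), and 2, 6 and, on type a, 8 or, on type b, 9 (homozygous mutant). The labels give no strain, mutant allele, litter or somite stage, nor whether embryos were pooled. The p-values therefore rest on the spread among samples that may be technical repeats. No probe set was annotated to Nkx2-5 alone, and the genotypes were not checked through its level.

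Retinoic acid is made from vitamin A in a pair of oxidation steps, the last of which is catalysed by Aldh1a2 in the trunk mesoderm of the embryo. In the cell it is bound by Crabp1, which is linked to its breakdown, or by Crabp2, which passes it to the receptors in the nucleus. There the retinoic acid receptors pair with retinoid X receptors on direct repeats of a short DNA element and switch target genes such as Rarb and anterior Hox genes. The signal patterns the hindbrain, the somites, and the inflow part and length of the early heart tube.

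Promoter windows of these genes were searched for the repeats on which the receptors sit. The RefSeq table for GRCm38.p6 held 15 windows of 300 bases (250 before to 50 after an annotated start) for 8 of the 9 genes. They were searched on both strands for a direct repeat of AGGTCA or AGTTCA with a spacer of 1, 2 or 5 bases, and none held one, against 0.161% of all 32851 windows. With GGGTCA and GGTTCA also allowed, a choice made after the files were seen, 0.588% of all windows held a repeat, and 0.0974% one with a spacer of 5 bases. Among these genes Rarb alone held one, with a spacer of 5 bases, from 53 to 37 bases before the start. The Rarb window, on chr14:16575427-16575726 (minus strand), is shown for this repeat, which stands in capitals. The Crabp1 window, on chr9:54764498-54764797 (plus strand), belongs to a gene measured here with a high signal. It held no such element, single or repeated, and 5 copies of the GC box GGGCGG counted on both strands, in capitals. As many GC boxes were found in 2.71% of all windows, and at least 1 in 35.7%. Both sequences read 5′ to 3′ along the gene.
Rarb: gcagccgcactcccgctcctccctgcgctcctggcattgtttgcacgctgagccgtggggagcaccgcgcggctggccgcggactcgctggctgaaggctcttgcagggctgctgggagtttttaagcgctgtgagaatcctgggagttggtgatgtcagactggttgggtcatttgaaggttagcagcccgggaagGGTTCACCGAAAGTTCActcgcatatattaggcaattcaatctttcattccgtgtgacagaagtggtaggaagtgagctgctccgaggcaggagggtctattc
Crabp1: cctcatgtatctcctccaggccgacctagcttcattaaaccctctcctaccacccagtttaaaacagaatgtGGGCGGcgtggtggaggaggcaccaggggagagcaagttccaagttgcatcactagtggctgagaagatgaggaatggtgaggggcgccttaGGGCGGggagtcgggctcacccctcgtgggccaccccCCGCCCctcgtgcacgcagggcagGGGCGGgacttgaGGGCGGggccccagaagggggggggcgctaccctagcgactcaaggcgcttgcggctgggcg

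Intensities are linear values with background subtracted, so values near or under 0 carry no signal. A floor of 2 noise SDs, 375.1 on type a and 523.1 on type b, marked the lowest value taken as signal. Between 54.5% and 57.8% of type a and between 38.6% and 44.0% of type b probe sets exceeded it. Testing was limited to the 6935 probe sets with signal over this floor on 3 or more of the 9 arrays. The 3' to 5' ratio of the actin control, a sign of shortened RNA, was 2.5 on homozygous mutant 8 of type a. It was 2.28 on homozygous mutant 9 of type b, against at most 1.41 on every other array. The mean of the BioB control probe sets was also highest on these arrays. It was 3950 on the type a array (at most 1539 on the others of that type) and 4531 on the type b array (at most 2320). Genes of heart muscle (7 of 7 measured), blood (6 of 8), neural tube (10 of 12), neural crest (7 of 9), endothelium (6 of 8) and liver or visceral endoderm (7 of 8) passed this filter together in the tissue.

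None of the retinoid genes passed the test between genotypes. Of the 9 probe sets 6 were tested, for Crabp1, Crabp2, Rarg and Aldh1a2. By limma's test with Benjamini-Hochberg adjustment over all tested probe sets, 0 of the 6 changed in the homozygous mutants against wild type, where 0.692% of all tested probe sets did. None changed in the heterozygotes against wild type (0% of all), or in the homozygous mutants against the heterozygotes (1.15% of all). An unadjusted p under 0.05 was reached by 0 of the 6 in any of the 3 comparisons, against 11.2%, 1.7% and 15.7% of all tested probe sets in that order. The values of the genotypes overlapped for each of the 6 in each comparison. Over all tested probe sets the groups did not overlap in 15.4%, 6.37% and 22.6%. With only 6 probe sets, counts of 0 cannot be told from such shares. The median log2 fold change of the 6 was -0.06, 0.05 and -0.14, beside -0.02, 0.03 and -0.07 over all tested probe sets. The comparisons share their arrays. In bulk tissue fewer cells of a type and less RNA per cell cannot be told apart.

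**Figure D1:**
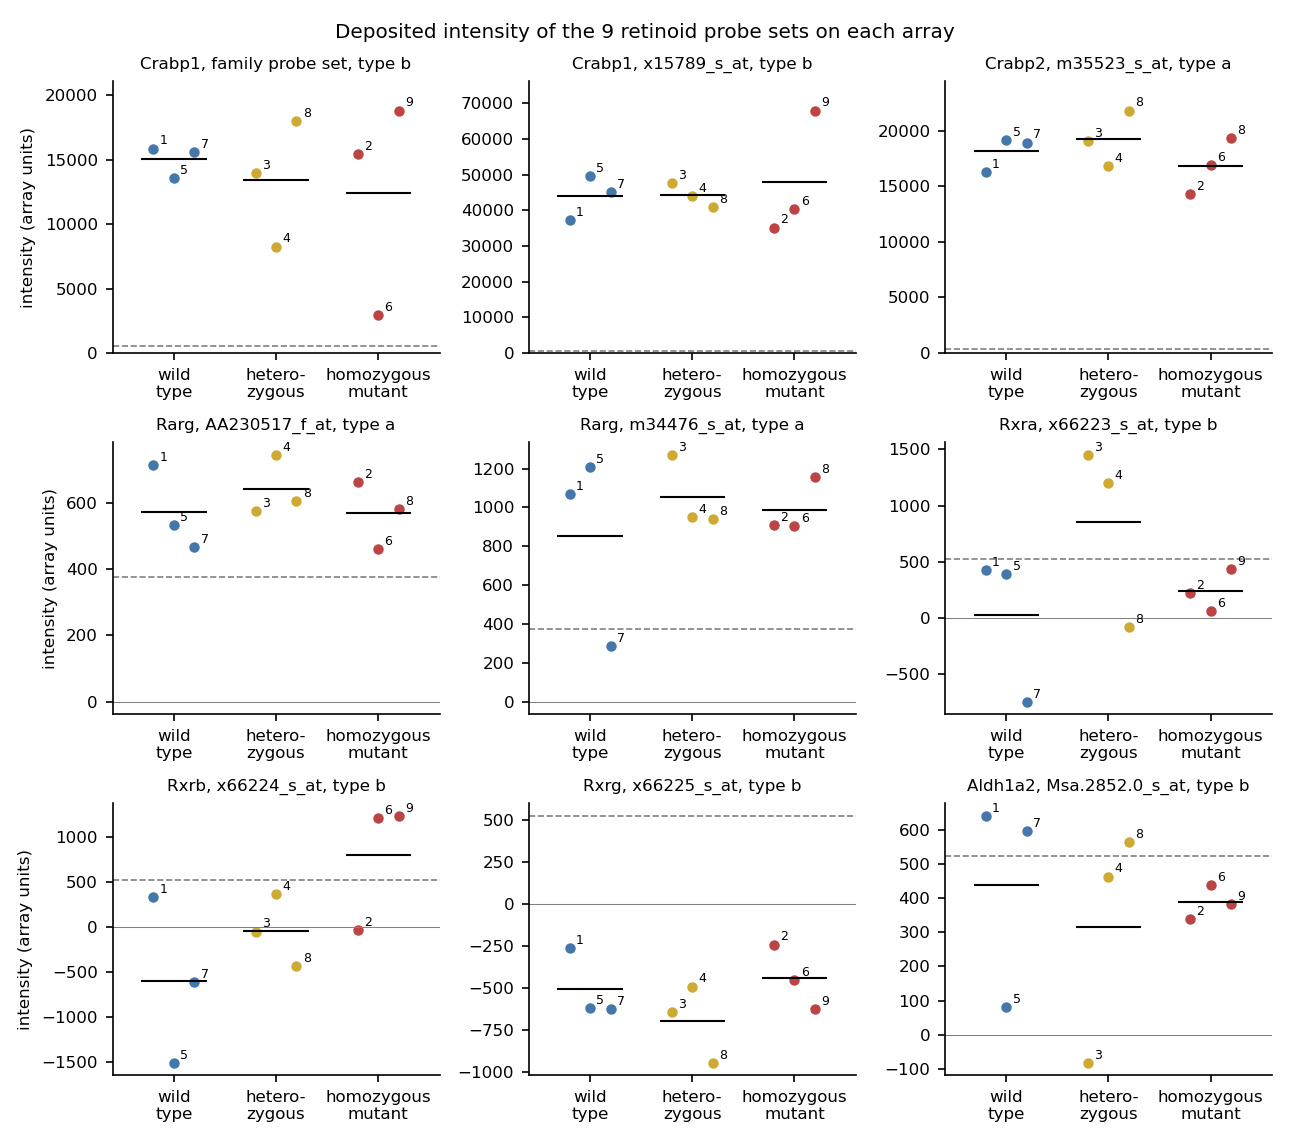
Deposited intensity (vertical axis, array units) of each retinoid probe set by genotype; points are arrays with their replicate number, black bars are group means, the dashed line is the floor of the array type and the thin line is 0. The groups overlap in the panels of Crabp1, Crabp2, Rarg and Aldh1a2, and Rxrg lies under 0 on all 9 arrays.

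Among the binding proteins, Crabp2 had the narrowest spread. Its intensity on type a arrays was 16268, 19183 and 18922 in wild type 1, 5 and 7. The heterozygotes 3, 4 and 8 had 19036, 16842 and 21797. The homozygous mutants 2, 6 and 8 had 14277, 16932 and 19302. The heterozygous mean was the highest and the mutant mean the lowest, and every genotype held values within the range of the others. The group values were 18120 ± 1613 (SD, n = 3) in wild type, 19230 ± 2483 in heterozygotes and 16840 ± 2514 in mutants. The log2 fold change was -0.11 in homozygous mutants against wild type (SE 0.164, 95% interval -0.47 to 0.24, limma adjusted p = 0.878). It was 0.08 in heterozygotes against wild type (interval -0.28 to 0.44, adjusted p = 1) and -0.19 in mutants against heterozygotes (interval -0.55 to 0.16, adjusted p = 0.598). Without homozygous mutant 2 the difference between mutants and wild type was 0.00030.

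Crabp1, which at this stage is known from hindbrain, neural crest and limb and trunk mesenchyme, was read by 2 probe sets, whose lowest values fell on different arrays. The probe set x15789_s_at had 37217, 49513 and 45062 in wild type 1, 5 and 7. The heterozygotes 3, 4 and 8 had 47613, 44104 and 40849, and the homozygous mutants 2, 6 and 9 had 35171, 40324 and 67956. The mutants thus held both the lowest and the highest of the 9 values, and the highest was on the array with the raised actin ratio. The means were 43930 ± 6225 (SD, n = 3), 44190 ± 3383 and 47820 ± 17630 in the order wild type, heterozygous, mutant. The log2 fold change of mutants against wild type was 0.07 (SE 0.266, 95% interval -0.51 to 0.66, limma adjusted p = 0.947), and -0.21 (adjusted p = 0.730) without homozygous mutant 9. It was also negative under quantile normalization (-0.07) and with array weights (-0.13). Heterozygotes differed from wild type by 0.02 (interval -0.57 to 0.60, adjusted p = 1), which was -0.08 under quantile normalization and -0.003 under median scaling. Mutants differed from heterozygotes by 0.06 (interval -0.53 to 0.64, adjusted p = 0.936).

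The other Crabp1 probe set, called the family probe set here, carries the maker's suffix _f_at for probes shared by a family of similar sequences. It had 15865, 13603 and 15597 in wild type 1, 5 and 7, a narrow range. The heterozygotes 3, 4 and 8 had 13975, 8259 and 18015, and the homozygous mutants 2, 6 and 9 had 15468, 2962 and 18812. A single array, homozygous mutant 6, was far under all others, while the other mutants lay within or above the wild-type range. The means were 15020 ± 1236 (SD, n = 3), 13420 ± 4902 and 12410 ± 8355 in the same order. The log2 fold change of mutants against wild type was -0.66 (SE 0.565, 95% interval -1.90 to 0.59, limma adjusted p = 0.735), and 0.19 without homozygous mutant 6. Heterozygotes differed from wild type by -0.23 (interval -1.47 to 1.01, adjusted p = 1), and by 0.08 without heterozygous 4. Mutants differed from heterozygotes by -0.42 (interval -1.67 to 0.82, adjusted p = 0.759), and by 0.42 without homozygous mutant 6. Across the 9 arrays the values of the Crabp1 probe sets had a Pearson r of 0.311 (exact permutation p = 0.367, two-sided) and a Spearman rho of 0.133 (exact permutation p = 0.744). Without the 2 arrays farthest from the median of the family probe set, r was 0.373. This was 1 of 2 such relations, the other being Rarg, and the adjusted values were 0.404 and 0.744.

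**Figure D2:**
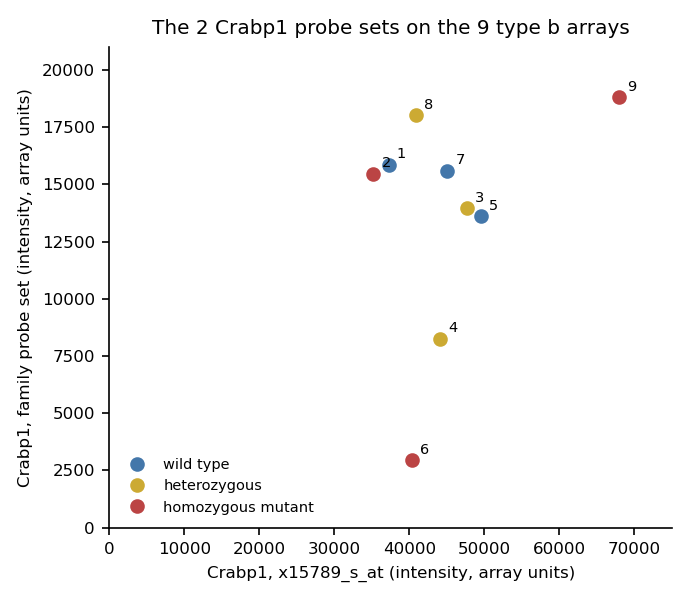
Intensity of the Crabp1 family probe set (vertical axis) against probe set x15789_s_at (horizontal axis), both in array units, on the 9 type b arrays, coloured by genotype and marked with the replicate number. Homozygous mutant 6 is the lowest on the vertical axis at 2962. On the horizontal axis it has 40324, inside the range of the others and under the median of 44100. Homozygous mutant 9 is the highest on both.

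Of the receptors, Rarg exceeded the floor at both of its probe sets. Rarg is the retinoic acid receptor of precartilage mesenchyme and the tail end of the embryo. The probe set m34476_s_at had 1071, 1208 and 284.8 in wild type 1, 5 and 7. The heterozygotes 3, 4 and 8 had 1271, 952.0 and 941.9, and the homozygous mutants 2, 6 and 8 had 908.5, 904.6 and 1155. Wild type 7 alone was under the floor, and the other 8 arrays lay within a range of 904.6 to 1271. The means were 854.5 ± 498 (SD, n = 3) in wild type, 1055 ± 187 in heterozygotes and 989.4 ± 144 in mutants. The log2 fold change of mutants against wild type was 0.32 (SE 0.400, 95% interval -0.55 to 1.20, limma adjusted p = 0.849), and -0.21 without wild type 7. Heterozygotes differed from wild type by 0.41 (interval -0.46 to 1.29, adjusted p = 1), and by -0.12 without wild type 7. Mutants differed from heterozygotes by -0.09 (interval -0.96 to 0.79, adjusted p = 0.933), and by 0.05 without heterozygous 3.

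The other Rarg probe set, AA230517_f_at, was closer to the floor but exceeded it on all 9 arrays. It had 713.6, 531.6 and 465.9 in wild type 1, 5 and 7, then 573.8, 743.9 and 604.6 in heterozygotes 3, 4 and 8. The homozygous mutants 2, 6 and 8 had 661.3, 460.0 and 580.3. Wild-type and mutant means were nearly equal, at 570.4 ± 128 (SD, n = 3) and 567.2 ± 101, with 640.8 ± 90.6 in heterozygotes. The log2 fold change of mutants against wild type was -0.00058 (SE 0.241, 95% interval -0.53 to 0.53, limma adjusted p = 0.9998), and it was positive under quantile normalization (0.03) and median scaling (0.04). Heterozygotes differed from wild type by 0.18 (interval -0.35 to 0.71, adjusted p = 1) and mutants from heterozygotes by -0.18 (interval -0.71 to 0.35, adjusted p = 0.757). The values of the Rarg probe sets had a Pearson r of 0.336 over the 9 arrays (exact permutation p = 0.404, two-sided) and a Spearman rho of 0.2 (exact permutation p = 0.613), with adjusted values of 0.404 and 0.744. Without the 2 arrays farthest from the median of AA230517_f_at, r was 0.439.

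The retinoid X receptors, which pair with the retinoic acid receptors and with many other nuclear receptors, were mostly under the floor and were not tested. Rxra had 430.1, 394.0 and -742.8 in wild type 1, 5 and 7, and 225.7, 63.3 and 437.1 in homozygous mutants 2, 6 and 9. The heterozygotes 3, 4 and 8 had 1452, 1199 and -79.0. Rxra thus exceeded the floor on 2 of 9 arrays, both heterozygous, while heterozygous 8 was under 0. With no filter on low values its log2 fold change of heterozygotes against wild type was 0.89. Values were still raised to the floor, where every wild type and heterozygous 8 lay. The value therefore depends on the floor and is not a bound. No p-value is given, since every wild type and every mutant was set to the same value and held no spread.

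Rxrb had 329.7, -1504 and -610.5 in wild type 1, 5 and 7, and -49.5, 363.6 and -435.8 in heterozygotes 3, 4 and 8. The homozygous mutants 2, 6 and 9 had -37.6, 1209 and 1235. Rxrb exceeded the floor on 2 of 9 arrays, both homozygous mutant, and mutant 2 lay among the other genotypes. With no filter on low values the log2 fold change of mutants against wild type was 0.82. Here too every wild type was raised to the floor, and so was homozygous mutant 2, so the value is not a bound. Every wild type and every heterozygote was set to the same value, and no p-value is given. Rxrg, the receptor of striated muscle and some neurons, ranged from -946.1 to -242.7 over the 9 arrays with a median of -623.6. It gave no signal above background in any genotype.

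Aldh1a2, the enzyme that makes most retinoic acid of the early trunk, was at the edge of detection. It had 642.4, 79.6 and 597.2 in wild type 1, 5 and 7, and -82.6, 463.8 and 564.8 in heterozygotes 3, 4 and 8. The homozygous mutants 2, 6 and 9 had 339.9, 440.2 and 383.6. Wild type 1 and 7 and heterozygous 8 exceeded the floor, no mutant did, and the mutant values lay inside the range of both other genotypes. The means were 439.7 ± 313 (SD, n = 3), 315.3 ± 348 and 387.9 ± 50.3 in the order wild type, heterozygous, mutant. With values under the floor set to it, the log2 fold change of mutants against wild type was -0.16 (SE 0.132, 95% interval -0.45 to 0.13, limma adjusted p = 0.711). Heterozygotes differed from wild type by -0.13 (adjusted p = 1) and mutants from heterozygotes by -0.04 (adjusted p = 0.916). Most values behind these differences are at the floor. On an asinh scale, which has no floor, they were -0.05 (mutants against wild type) and 0.23 (mutants against heterozygotes), the latter of the other sign. Mutants against wild type gave -0.27 with a floor of 1 noise SD, -0.10 without wild type 1 and -0.24 without wild type 5.

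**Figure D3:**
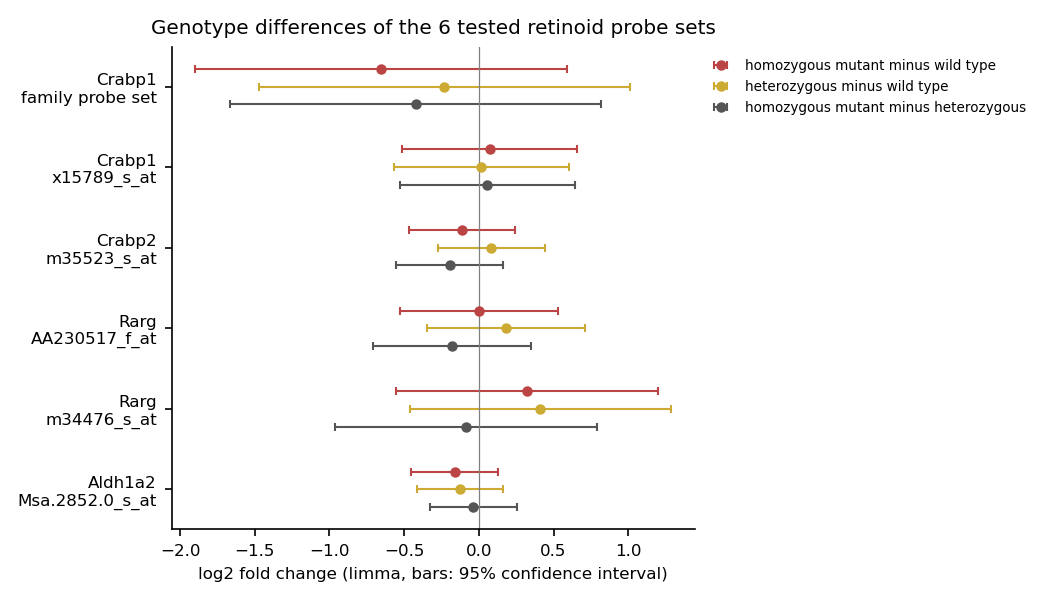
Log2 fold changes (horizontal axis) of the 6 tested retinoid probe sets in the 3 comparisons of genotypes, from limma's fit over all tested probe sets of each array type; bars are 95% confidence intervals. Each of the 18 intervals includes 0, and the widest are those of the Crabp1 family probe set, from -1.90 to 0.59 in mutants against wild type.

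Crabp2 and a Rarg probe set varied within each genotype together with Afp, alpha-fetoprotein, which marks liver bud and visceral endoderm. Afp was 1257 to 1775 on the type a arrays of wild type 1, heterozygous 4 and homozygous mutant 2, and 90.6 to 233.8 on the other 6. Crabp2 was lowest in that replicate in each of the 3 genotypes, with 14277 to 16842 on the 3 arrays of high Afp and 16932 to 21797 on the other 6. Rarg at AA230517_f_at was highest in that replicate in each genotype, with 661.3 to 743.9 against 460.0 to 604.6. The 3 arrays and the other 6 did not overlap for these 2 of the 6 tested retinoid probe sets, and for 2.77% of all tested probe sets. The other Rarg probe set had 908.5 to 1071 on the arrays of high Afp, inside the 284.8 to 1271 of the others. The arrays were set apart by a measured value and not by a label, so no test was made.

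The heart muscle sums did not overlap between the same replicates and the others, though on type a the gap was narrow. The summed intensity of the heart muscle genes on type a (Myl4, Nppb, Tnnc1 and Tnnt2) was 22860 to 33170 on the 3 arrays of high Afp and 33310 to 73380 on the other 6. On type b the sum of Actc1, Myh6 and Myl2 was 55870 to 71420 against 78400 to 118900. The sums of the 7 other marker lists overlapped on both array types, some of them barely. Those of liver and visceral endoderm were 1637 to 2575 against 869.5 to 1803 on type a (Rbp4 and Ttr). On type b, where Afp itself is in the sum with Alb, Apoa1, Apoa2 and Apoe, they were 5954 to 9824 against 1650 to 5986. The neural tube sum on type a was 20650 to 24450 against 8428 to 20670. No liver or visceral endoderm marker measured was under the floor on every array. The part of the cut of the embryo in the Crabp2 and Rarg values was not tested. With the replicate of high Afp as a block, an alternative added after seeing the data, 0 of the 6 retinoid probe sets passed in any comparison, and the SE of Crabp2 became 0.139 in place of 0.164.

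**Figure D4:**
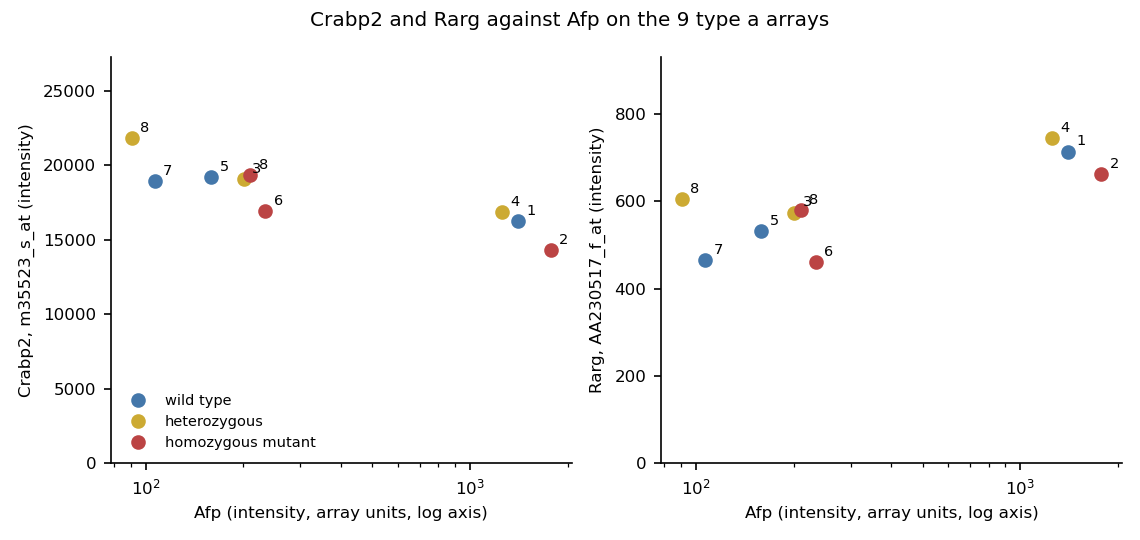
Intensity of Crabp2 (left, vertical axis) and of Rarg at AA230517_f_at (right, vertical axis) against that of Afp (horizontal axis, log scale), in array units, on the 9 type a arrays, coloured by genotype and marked with the replicate number. The 3 arrays of high Afp, 1 of each genotype, hold the lowest Crabp2 values (14277 to 16842) and the highest Rarg values (661.3 to 743.9).

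The genes whose levels ran closest to each retinoid probe set over the 9 arrays of its type are given as a description, since the best of many candidates will always correlate. Crabp2 was closest to Purb (r = 0.949 on log2 values), Rrp1 (0.927) and Urod (0.911) among 2658 candidate probe sets. All 3 were highest in heterozygous 8, as was Crabp2. Rarg at AA230517_f_at was closest to Plekhh1 (0.945), Agap3 (0.913) and Twist2 (0.841), a transcription factor of mesenchyme. Those 3 were highest in heterozygous 4, as was Rarg. Crabp1 at x15789_s_at was closest to Tubb5 (0.959), Hba-a1 (0.912) and Hmgn1 (0.907) among 742 candidates, and all were highest on the array of homozygous mutant 9.

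Genes that make and carry retinoids did not pass either, and those that break down retinoic acid (the Cyp26 family) were not analysed here. Of 25 genes listed 10 had a probe set and 8 were tested, and limma called 0 of the 8 in any comparison. None of them reached an unadjusted p under 0.05 either. Their median log2 fold change was 0.14 in mutants against wild type and 0.05 in heterozygotes against wild type, beside -0.02 and 0.03 over all tested probe sets. The groups of mutants and wild type did not overlap for 1 of the 8, Rbp4, the plasma carrier of retinol, where 15.4% of all tested probe sets were apart. Rbp4, singled out after its values were seen, had 1008, 861.6 and 649.9 in wild type 1, 5 and 7 and 1416, 1026 and 1161 in homozygous mutants 2, 6 and 8. Its log2 fold change was 0.53 (SE 0.291, adjusted p = 0.538), and the heterozygotes 3, 4 and 8 had 1020, 1696 and 1047. Rbp4 and its carrier partner Ttr belong to the liver and visceral endoderm list, and both were highest in the replicate of high Afp in each genotype. Adh7, a retinol dehydrogenase, had the highest log2 fold change of the list at 0.55 (SE 0.301, adjusted p = 0.536). It was 0.92 without homozygous mutant 2, 0.35 without homozygous mutant 6, 0.86 with a floor of 1 noise SD and 0.24 with array weights. Aldh1a1, a relative of Aldh1a2, had the lowest at -0.05 (SE 0.166, adjusted p = 0.938). Its values in homozygous mutants 2 and 6, 249.2 and 286.0, were under the floor, so this is a bound. Over the alternative settings it ranged from -0.38 to 0.02. Aldh1a3 and Aldh1a7 never exceeded the floor.

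Among nuclear receptors that pair with retinoid X receptors or bind similar DNA, 19 of 24 had a probe set and 7 were tested, with 0 changed in any comparison. In mutants against wild type 1 of the 7 had an unadjusted p under 0.05 (11.2% of all tested probe sets did), and the median log2 fold change was -0.15. This was Nr2f6, an orphan receptor, with 3517, 3192 and 2457 in wild type 1, 5 and 7, and 2171, 1853 and 2042 in homozygous mutants 2, 6 and 8. All mutants lay under all wild types. These groups did not overlap for 1 of the 7, where 15.4% of all tested probe sets were apart. The log2 fold change of Nr2f6, -0.58 (SE 0.185), was the lowest of the list and had an adjusted p of 0.234. The heterozygotes had 3027, 3371 and 2675, within the wild-type range. Nr2f6 was also highest in the replicate of high Afp in each genotype. Rora had the highest log2 fold change, 0.25 (SE 0.197, adjusted p = 0.696). Every wild type and homozygous mutant 9 were under the floor, so the value moves with the floor and is not a bound. It was 0.96 with a floor of 1 noise SD, 0.64 on an asinh scale and 0.01 without homozygous mutant 6. The thyroid hormone receptor Thrb, the vitamin D receptor Vdr, and Ppara and Pparg never exceeded the floor.

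The coregulators that retinoid receptors recruit had 14 of 24 genes with a probe set and 11 tested, and 0 changed in any comparison. In mutants against wild type 2 of the 11 had an unadjusted p under 0.05 (11.2% of all tested probe sets did), and 3 had groups that did not overlap (15.4% of all). The median was -0.04. Psmc5, a proteasome subunit also known as a partner of nuclear receptors, had 14749, 16271 and 21409 in wild type 1, 5 and 7, and 9981, 10218 and 12247 in homozygous mutants 2, 6 and 9. Its log2 fold change of -0.68 (SE 0.186), the lowest of the list, had an adjusted p of 0.152, and the heterozygotes had 15339, 16056 and 18021. Mnat1, a subunit of the kinase that phosphorylates retinoic acid receptors, had the highest log2 fold change at 0.50 (SE 0.202, adjusted p = 0.365). It had 1349 to 1663 in wild type and 1911 to 2435 in mutants.

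Targets of retinoic acid, among them Hox genes of the hindbrain and neck, had 21 of 38 genes with a probe set. Of these 15 were tested, and 0 changed in any comparison. In mutants against wild type 2 of the 15 had an unadjusted p under 0.05, where 11.2% of all tested probe sets did, and 9 of 15 were negative, with a median of -0.03. The lowest log2 fold change was that of Neurog2, a proneural factor, with 1030, 912.5 and 1017 in wild type 1, 5 and 7, and 335.0, 54.1 and 503.2 in homozygous mutants 2, 6 and 9. Every mutant was under the floor, so that the -0.91 (SE 0.256, adjusted p = 0.167) is a bound. Hoxb3, named like Hoxb4 after its values were seen, had -0.82 (SE 0.277, adjusted p = 0.276), with 792.6 to 1264 in wild type and 413.0 to 646.9 in mutants, and -0.37 with a floor of 4 noise SDs. Hoxb4 was read on both array types, whose intensities may not be comparable. At its type a probe set it had -0.81 (SE 0.239, limma unadjusted p = 0.0055, adjusted p = 0.188). The groups did not overlap there, as in 15.4% of all tested probe sets. Only 1 mutant exceeded the floor at that probe set, so the -0.81 is a bound, and it is not in the counts above. At the type b probe set, the one counted, Hoxb4 had -0.39 (SE 0.299, adjusted p = 0.688) with groups that overlapped. Hoxb1 had the highest, 0.46 (SE 0.323, adjusted p = 0.666), with 0.50 (adjusted p = 0.584) at its other probe set. Its highest value, 4065, was on homozygous mutant 9, the array with the raised actin ratio, and the difference was 0.15 without it, 0.19 without wild type 1 and 0.19 with array weights. Egr2 and Stra8 never exceeded the floor.

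Relatives of the binding proteins in the fatty acid binding protein family had 7 of 12 genes with a probe set and 3 tested, with 0 changed in any comparison and a median of -0.04 in mutants against wild type. Fabp7, of radial glia, had 2087, 2177 and 1569 in wild type 1, 5 and 7, and 1191, 798.8 and 472.6 in homozygous mutants 2, 6 and 8. These groups did not overlap for 1 of the 3, Fabp7, where 15.4% of all tested probe sets were apart. The log2 fold change of -1.33 (SE 0.321) had an adjusted p of 0.110. The heterozygotes 3, 4 and 8 had 2198.5, 1749 and 2317. Mutants differed from heterozygotes by -1.44 (limma adjusted p = 0.056). Fabp3, of heart and muscle, had 1.45 (SE 0.828, adjusted p = 0.557), from 1391, 356.2 and 1818 in wild type and 1435, 2323 and 5812 in mutants. The highest Fabp3 value was on homozygous mutant 8, the array with the raised actin ratio. The difference was 0.89 without it and 0.76 without wild type 5. Fabp5 had -0.04 (adjusted p = 0.945).

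Fabp7 and Neurog2 belong to the neural tube list, so its counts and sums include both and are not independent of them. Of its 10 tested genes 0 passed in mutants against wild type, 5 had an unadjusted p under 0.05 (11.2% of all tested probe sets did) and 10 were negative, with a median of -0.86. In mutants against heterozygotes Hes5, a Notch target, fell by 1.26 (limma adjusted p = 0.0335). The summed intensity of its type b genes (Dll1, Ncam1, Neurog2, Pax3 and Tubb3) was 5788 to 9470 in wild type, 6137 to 7607 in heterozygotes and 2600 to 4966 in mutants. On type a (Fabp7, Hes5, Nes, Sox11 and Sox2) it was 15890 to 24450, 18790 to 23090 and 8428 to 20650. Sox3 was under the floor on every array. The part of neural tissue in the Fabp7, Neurog2 and Hoxb3 values was not tested. The neural crest list, whose cells express Crabp1, had a median of 0.10 over 7 genes with 0 passed.

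**Figure D5:**
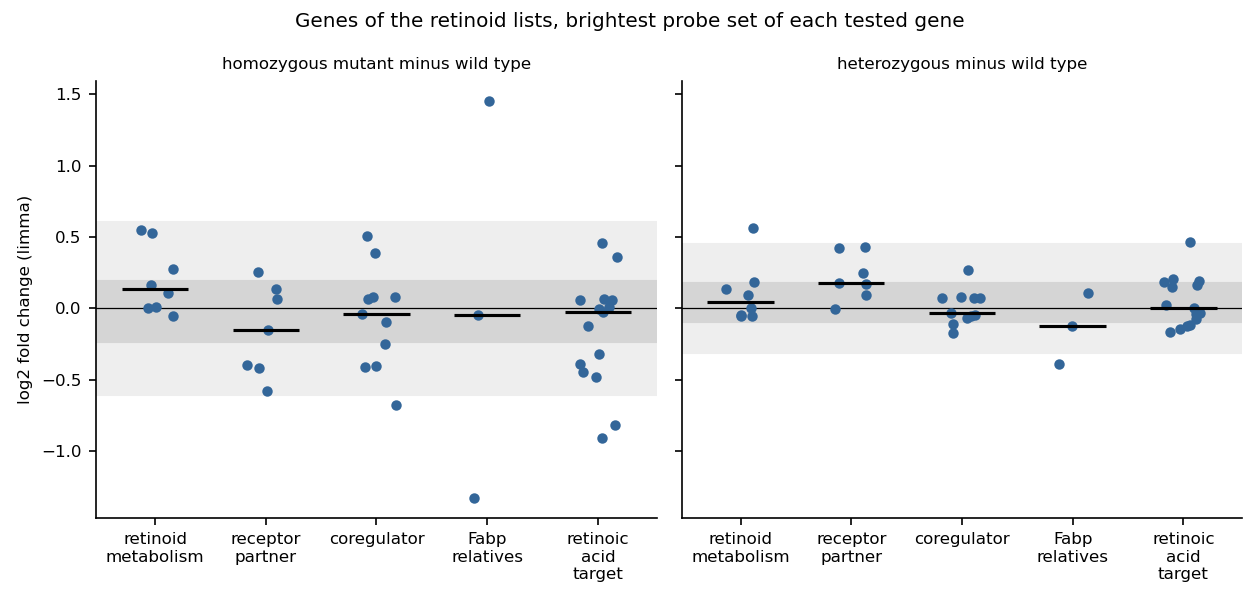
Log2 fold changes (vertical axis) of the tested genes of 5 retinoid lists in homozygous mutants (left) and heterozygotes (right) against wild type; points are genes at their brightest probe set, black bars are list medians, and the dark and light grey bands hold the middle 50% and 90% of all tested probe sets. The medians lie between -0.15 and 0.14 on the left, and Fabp3 (1.45) and Fabp7 (-1.33) lie farthest from 0.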

How the data were processed

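The deposited intensity is 1 value per probe set and array, linear and background-subtracted by the authors, as read from the values. Which software and scaling were used is not stated in these sources. The authors' scaling was kept. Control probe sets were left out. Heterozygous 8 of type b lacks 499 values, none of a gene named here for its level.

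Gene names are those of GEO's platform annotation after an update to current symbols (7525 of 7542 matched). Of the probe sets 7542 had 1 symbol, 224 several and 5291 none. For list genes the probe set of highest intensity was used, also where a gene had probe sets on both array types.

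The noise SD was 1.4826 times the median size of the negative values. Values under 2 noise SDs were set to that floor and log2 was taken, so a log2 fold change near it understates the change. Probe sets above it on at least 3 of 9 arrays were fitted per array type with limma 3.58.1 in R 4.3.3 (lmFit, eBayes with trend, two-sided, 3 genotypes sharing the spread). Benjamini-Hochberg adjustment ran over the 6935 probe sets of both types, with a threshold of 0.05. The script was tested on simulated data. Precision is limited by having 3 arrays for each genotype on a type.

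The retinoid genes and the lists were chosen with earlier results of these data known. Named were all their probe sets, of each list the genes past the threshold and those of highest and lowest log2 fold change in mutants against wild type, and the 3 nearest genes of each probe set above the floor on all 9 arrays. Alternatives varied the floor, the filter, normalization, scale, fitted groups, array weights, trend, adjustment and replicates.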

Additional observations from a re-analysis of the deposited data

How the results depend on the processing

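Under 21 alternatives the 6 tested retinoid probe sets gave 366 values. Aldh1a2 had a value under only 18 of them and Rarg AA230517_f_at under 20. Of the 366 values 0 passed the threshold (smallest limma adjusted p = 0.272), 341 kept their direction and 25 turned it. Those that turned reached at most 0.42 in size on the log2 scale. The log2 fold changes of mutants against wild type that turned were, under quantile normalization, -0.072 for Crabp1 x15789_s_at and 0.025 for Rarg AA230517_f_at. They were 0.043 for the latter under median scaling, -0.127 for the former with array weights, and -0.010 for Rarg m34476_s_at with a floor of 4 noise SDs. For heterozygotes against wild type they were -0.083 (quantile) and -0.0030 (median scaling) for Crabp1 x15789_s_at, and -0.022 for Crabp2 with array weights. For mutants against heterozygotes they were -0.185 for Crabp1 x15789_s_at with array weights and 0.230 for Aldh1a2 on an asinh scale. The cause of these turns was not tested. With each replicate left out in turn, mutants against wild type ranged from -1.15 to 0.19 for the Crabp1 family probe set, -0.21 to 0.26 for Crabp1 x15789_s_at, -0.22 to 0.00030 for Crabp2, -0.13 to 0.17 for Rarg AA230517_f_at, -0.21 to 0.63 for Rarg m34476_s_at, -0.24 to -0.10 for Aldh1a2, and -0.15 to 0.022 for Aldh1a1. Heterozygotes against wild type ranged in that order from -0.48 to 0.082, -0.10 to 0.11, -0.014 to 0.17, 0.05 to 0.36, -0.12 to 0.72 and -0.21 to -0.06, up to Aldh1a2. Mutants against heterozygotes ranged from -0.92 to 0.42, -0.23 to 0.25, -0.30 to -0.08, -0.30 to -0.04, -0.20 to 0.054 and -0.06 to 0.

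The calls over all probe sets moved more. In mutants against wild type the 48 calls became 21 with no filter on low values and 7 when only those genotypes were fitted, and ranged from 14 (without wild type 5) to 55 (without homozygous mutant 8 or 9) with a replicate left out. In heterozygotes against wild type the 0 calls ranged up to 1, without wild type 7 or heterozygous 8. In mutants against heterozygotes the 80 calls became 42 with no filter, 40 with only those genotypes and 708 with array weights, and ranged from 14 (without heterozygous 3) to 88 (without homozygous mutant 8 or 9). No paired analysis was possible because no pair of genotypes shares more than 1 replicate number. Signal over background limits Aldh1a2 and the Rxr genes most.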

Other observations

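The lowest value of the Crabp1 family probe set, 2962, was on the array of homozygous mutant 6. The 3 genes closest to it over the 9 type b arrays, Lamp1 (a lysosomal membrane protein, r = 0.946), Atxn10 (0.932) and Rbbp7 (a histone chaperone, 0.931), were each lowest there. They are the nearest of 742 candidate probe sets, and this 1 low value weighs heavily in the choice, so that their low values there are a description of the choice. Lamp1 had 3010 against at least 7312 on the other 8 arrays, Atxn10 551.7 against at least 3897, and Rbbp7 4352 against at least 13898. With an array left out, the lowest r was 0.690, 0.547 and 0.538. The other Crabp1 probe set had 40324 on that array, inside the range of the others. The cause was not tested.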
